A study of Mus musculus with 36 samples.

Results

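A set of 7 genes that move, catch or store iron were followed in mouse embryonic fibroblasts that carried or lacked PKBa, the protein kinase also called Akt1. The members were Slc40a1, Scara5, Lcn2, Tfrc, Fth1, Ftl1 and Slc11a2, taken as every probe set of the array whose platform gene symbol was one of these names. Of the 7 genes, 6 had probe sets of their own, 13 of the 22690 probe sets on the array, and 3 further probe sets for Tfrc were array controls. Ftl1, the ferritin light chain, was listed on 3 probe sets that also listed other genes, so no value is given for it. The members were chosen by measured values: Slc40a1, Scara5 and Lcn2 were known to be among the genes with the largest changes over time in these arrays. Their values are therefore given as a description, with no test, and tests are given for Tfrc, Fth1, Slc11a2 and other genes of iron handling.

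Cells take up most of their iron as transferrin, which binds the transferrin receptor (Tfrc) at the surface and releases its iron in endosomes, from which the transporter DMT1 (Slc11a2) carries it into the cytosol. Scara5 is a scavenger receptor that can take up ferritin, and lipocalin 2 (Lcn2) is a secreted protein that binds iron-loaded siderophores. Iron that is not used is kept in ferritin, a shell of heavy (Fth1) and light (Ftl1) chains, and leaves the cell through ferroportin (Slc40a1), the iron exporter. Much of the control of Tfrc and ferritin is known to act on the messenger RNA and its translation through the iron regulatory proteins, which an array of RNA levels sees only in part.

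The arrays held RNA from wild type and PKBa-/- fibroblasts at times 0, 2, 6, 24 and 48, whose unit the labels do not give, with 4 replicates per group and 2 at time 2, 36 arrays in all. The fibroblasts came from 13.5-day embryos of crosses between heterozygous PKBa mice and were used between passages 15 and 20. The deletion is carried in every cell, with no Cre or transgene named. The title speaks of cells treated with the culture medium DMEM, while the protocol also describes a medium with isobutylmethylxanthine, dexamethasone and insulin that induces fat cells, and the sample labels do not say which of them an array's cells received. The labels do not say that replicates were separate cultures, or whether a genotype is represented by more than 1 line, so p-values measure the spread between these arrays, and a difference between lines and one between genotypes cannot be told apart.

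Values are probe set signals on a linear scale as the authors deposited them; array medians ran from 133.7 to 145.2. Akt1 itself gave a mean signal of 1117 ± 183 (SD) over the 18 wild type arrays, with a range of 843 to 1395. Over the 18 PKBa-/- arrays it was 74.3 ± 14.3, with a range of 43.8 to 103, so no array overlapped those of the other genotype. Within a group, the arrays of replicates 1 and 2, and of replicates 3 and 4, correlated at 0.993 with each other and at 0.969 across these pairs. The test was therefore also run on pair averages, in which each such pair was averaged first. Its adjusted p is printed beside the results as the value after the semicolon. Among the alternatives tried, it was nearly always the highest. Time 2 held replicates 1 and 2 alone, so on pair averages each of its groups was 1 value with no spread of its own. No p or count on pair averages is therefore given for single comparisons at time 2. Tests on pair averages that take all times together, as an average or as a course over time, still include time 2. Their p-values and counts thus rest in part on groups of 1 value. A change from the first time to time 2 also sets replicates 1 and 2 against a mean of all 4 replicates. A difference between the pairs therefore enters it. Ratios of the 3' to the 5' control probe sets, a sign of RNA quality, overlapped between genotypes: 0.771 to 1.02 in wild type and 0.791 to 1.00 in PKBa-/- for Gapdh. The Gapdh ratio was not level over time or between pairs. In wild type replicates 1 and 2 it was 0.841 and 0.854 at time 0, then 1.02 and 1.00 at time 48. Wild type replicates 3 and 4 gave 0.791 and 0.800, then 0.847 and 0.914. In PKBa-/-, replicates 1 and 2 gave 0.871 and 0.907, then 1.00 and 0.941, and replicates 3 and 4 gave 0.804 and 0.794, then 0.815 and 0.797. The part of RNA quality was not tested.

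RefSeq promoter windows of the GRCm38.p6 build were at hand for 4 of the 7 members: Lcn2, Tfrc, Fth1 and Ftl1. The 250 bases before a start site are shown for Lcn2, the member with the largest ratio over time in wild type, and for Tfrc and Fth1, the uptake receptor and the storage chain that were tested. Letters are 5' to 3' on the gene's strand, in lower case, with matches to a searched motif in capitals. The table holds 2 starts each for Tfrc and Fth1, of which the one with a CCAAT match is shown. The Lcn2 window lies at chr2:32387740-32387989 on the minus strand, that of the Tfrc start at chr16:32608646-32608895 on the plus strand and that of the Fth1 start at chr19:9982396-9982645 on the plus strand.
Lcn2: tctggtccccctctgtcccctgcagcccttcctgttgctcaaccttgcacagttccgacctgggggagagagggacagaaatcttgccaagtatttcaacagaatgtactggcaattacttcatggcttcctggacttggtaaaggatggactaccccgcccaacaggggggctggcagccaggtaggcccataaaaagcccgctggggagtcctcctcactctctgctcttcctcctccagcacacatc
Tfrc: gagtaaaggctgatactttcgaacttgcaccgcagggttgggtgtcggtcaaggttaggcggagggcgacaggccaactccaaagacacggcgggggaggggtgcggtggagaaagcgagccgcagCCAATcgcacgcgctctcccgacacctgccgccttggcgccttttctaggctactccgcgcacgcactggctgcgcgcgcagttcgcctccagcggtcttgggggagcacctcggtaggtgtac
Fth1: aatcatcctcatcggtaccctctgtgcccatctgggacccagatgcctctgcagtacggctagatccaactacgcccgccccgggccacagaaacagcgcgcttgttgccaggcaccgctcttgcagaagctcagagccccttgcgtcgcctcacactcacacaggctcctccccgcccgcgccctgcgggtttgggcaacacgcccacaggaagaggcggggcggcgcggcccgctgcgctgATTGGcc

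Both strands of each window were searched for 8 motifs, each given with the share of the 32851 promoters of the table that held it. They were the FoxO core GTAAACA, found in 3.17% of promoters, and the cAMP response element TGACGTCA, in 1.55%. The antioxidant response element was searched as TGACNNNGC and found in 10.2%. The E-box CACGTG was in 6.02%, and the hypoxia response core ACGTG, which every such E-box contains, in 16.6%. The CCAAT box was in 33.8%, the TATA box as TATAAA in 12.4% and the core of the glucocorticoid element, TGTTCT, in 16.1%. The capitals in the Tfrc window are a CCAAT from 124 to 120 bases before the start, and those in the Fth1 window a CCAAT on the other strand, read as ATTGG, from 7 to 3 bases before the start. At the other starts, that of Tfrc had an ACGTG from 228 to 224 bases before it and that of Fth1 a TATAAA on the other strand from 124 to 119 bases before it. The Ftl1 window, not shown, had a CCAAT on the other strand at 78 to 74 and at 34 to 30 bases before the start. The Lcn2 window held none of these 8 motifs. A match is a stretch of letters and not a shown binding site.

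Slc40a1, the exporter, was high in PKBa-/- fibroblasts at the start of the time course and lay at the wild type level from time 6 on. Its brightest probe set gave signals of 981, 922, 1322 and 1127 in the 4 PKBa-/- arrays at time 0, against 213, 203, 204 and 237 in wild type. At time 2 the PKBa-/- arrays gave 626 and 639 and the wild type arrays 135 and 145. At time 6 the signals were 106, 136, 159 and 133 in PKBa-/- and 158, 149, 138 and 127 in wild type. The genotypes thus did not overlap at times 0 and 2 and overlapped at time 6. Later arrays stayed low: 218, 267, 254 and 222 at time 24 and 176, 241, 225 and 249 at time 48 in PKBa-/-, against 166, 168, 244 and 221 and then 167, 204, 264 and 260 in wild type. Both genotypes overlapped at these times as well.

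The ratio of the Slc40a1 group means, PKBa-/- over wild type, was 5.07 at time 0, 4.51 at time 2, 0.935 at time 6, 1.20 at time 24 and 0.995 at time 48. Within PKBa-/-, the mean signal at time 6 was 8.15-fold lower than at time 0, and it was 4.53-fold lower at time 24 and 4.89-fold lower at time 48. On the scale of log2(signal + 32), which shrinks the change of dim probe sets, the difference of time 6 from time 0 was -2.75 in PKBa-/- and -0.50 in wild type. Ordered by mean, PKBa-/- at time 0 came before PKBa-/- at time 2 with no overlap of their arrays; then followed, each overlapping the next, PKBa-/- at time 24, wild type at 48, PKBa-/- at 48, wild type at 0 and wild type at 24. Wild type at times 6 and 2 and PKBa-/- at time 6 formed the lowest levels and also overlapped. The other Slc40a1 probe set had the same course, with 1032, 948, 1078 and 908 in PKBa-/- at time 0 and 72.5, 73.1, 65.6 and 81.7 at time 6, a 13.5-fold lower mean, and a ratio between genotypes of 5.48 at time 0.

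**Figure D1:**
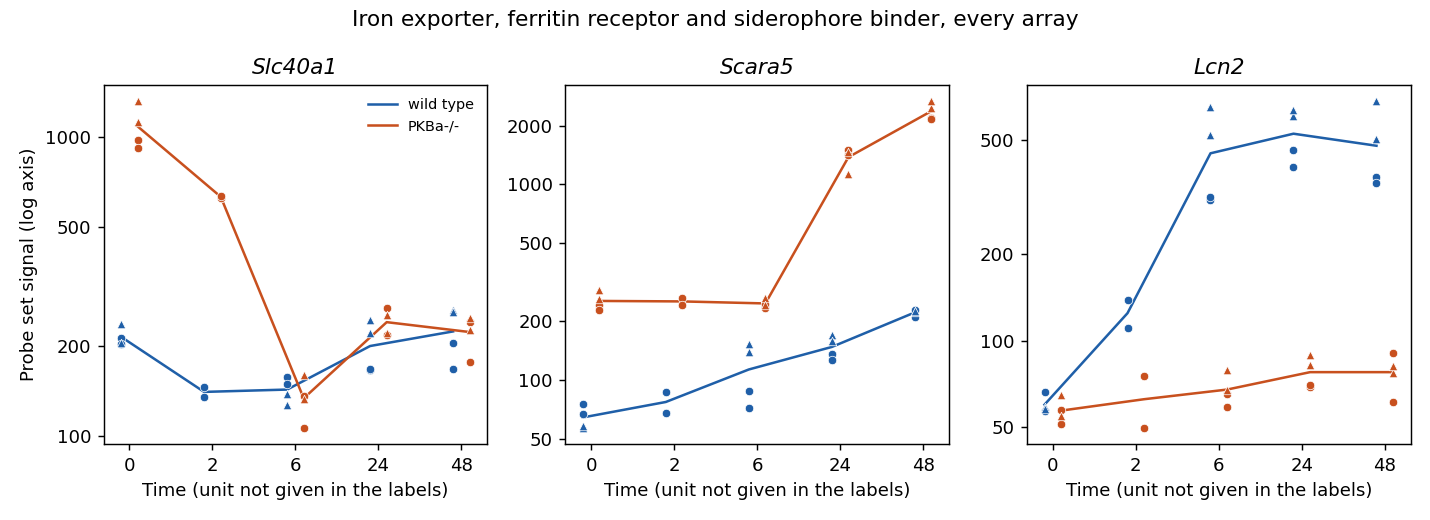
Signal of Slc40a1, Scara5 and Lcn2 (log axis) in every array against time, whose unit the labels do not give, in wild type (blue) and PKBa-/- (orange); circles are replicates 1 and 2, triangles replicates 3 and 4, and lines join group means. Slc40a1 in PKBa-/- has a mean of 1088 at time 0 and 134 at time 6, Scara5 reaches 2374 in PKBa-/- at time 48 and Lcn2 reaches 525 in wild type at time 24.

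Scara5, the ferritin receptor, was higher in PKBa-/- than in wild type at every time, with no overlap of their arrays, and its PKBa-/- level at times 24 and 48 lay far above that of the earlier times. Its brightest probe set read 241, 227, 287 and 259 in PKBa-/- at time 0, 264 and 241 at time 2 and 235, 245, 262 and 243 at time 6, a flat stretch. It then read 1497, 1418, 1474 and 1129 at time 24 and 2196, 2171, 2462 and 2666 at time 48. No array of these later groups overlapped an earlier one. In wild type the signals were 75.5, 66.8, 56.8 and 57.9 at time 0, 86.8 and 67.4 at time 2 and 87.9, 72.1, 139 and 153 at time 6. They went on to 135, 127, 169 and 159 at time 24 and 211, 227, 224 and 224 at time 48. At time 6 the wild type replicates 3 and 4 were above replicates 1 and 2.

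The mean of Scara5 at time 48 was 9.36 times that at time 0 in PKBa-/- and 3.45 times in wild type; at time 24 these ratios were 5.44 and 2.29. PKBa-/- over wild type was 3.95 at time 0, 3.27 at time 2, 2.18 at time 6, 9.36 at time 24 and 10.7 at time 48. In order of level came PKBa-/- at 48 and at 24, then PKBa-/- at times 0, 2 and 6, which overlapped, then wild type at 48, and the other wild type groups, which overlapped in turn. The second Scara5 probe set did not share this course: it stayed between 83.7 and 134 in wild type and between 87.4 and 126 in PKBa-/-, and its PKBa-/- mean at time 48 was 1.02 times that at time 0. The pattern thus rests on 1 of the 2 probe sets; these low signals lie near the level of about 123 that was needed for a gene's test.

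Lcn2, the siderophore binder, had much higher signals in wild type fibroblasts from time 6 on than at time 0, and dim signals at all times in PKBa-/-. Its only probe set read 66.0, 56.8, 58.8 and 57.8 in wild type at time 0, 139 and 110 at time 2 and 309, 315, 652 and 519 at time 6. It read 401, 460, 606 and 632 at time 24 and 370, 354, 681 and 502 at time 48. From time 6 on, replicates 3 and 4 were above replicates 1 and 2 in each wild type group. In PKBa-/- the signals were 57.5, 51.2, 64.8 and 54.8 at time 0, 49.7 and 75.4 at time 2 and 58.5, 65.2, 79.0 and 67.5 at time 6. At times 24 and 48 they were 68.9, 70.1, 82.5 and 89.1 and then 61.3, 90.5, 77.2 and 81.7. The genotypes overlapped at time 0 and at no later time.

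Wild type means of Lcn2 were 7.50 times the time 0 mean at time 6, 8.77 times at time 24 and 7.96 times at time 48. In PKBa-/- the largest such ratio was 1.36, both at time 24 and at time 48. At time 24 the wild type mean was 6.76 times the PKBa-/- mean. On the log2 scale the wild type difference of time 24 from time 0 was 2.58 ± 0.18 (SE) and that in PKBa-/- 0.30. In order of level the wild type groups at 24, 48 and 6 overlapped, wild type at time 2 stood alone, and all PKBa-/- groups and wild type at time 0 overlapped at the bottom.

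Of the markers of other cells that a fibroblast culture could hold, the mesothelial and adipocyte sums did not overlap between genotypes, and the macrophage and erythroid sums did. The summed signal of the 10 fibroblast markers was 46372 to 64662 in wild type and 67736 to 76883 in PKBa-/-, so the cells of both genotypes carried fibroblast RNA. The sum of the mesothelial markers, 6 of 8 of which were on the array, was 4570 to 7509 in wild type and 299 to 409 in PKBa-/-. Upk3b averaged 4543 against 60.9, Wt1 1001 against 42.0 and Msln 240 against 42.2. Of the keratins, Krt19 was lower in PKBa-/- (116 against 68.7), while Krt8 (116 against 115) and Krt18 (29.8 against 29.1) were alike. Macrophage markers summed to 864 to 1486 and 715 to 1105, with the defining gene Ptprc at 13.6 to 26.3, near the bottom of the scale, and with Cd14 at a mean of 262 against 77.6 and Csf1r at 206 against 222. Adipocyte markers, 8 of 10 measured, summed to 2713 to 5954 in wild type and 1240 to 2314 in PKBa-/-, with Adipoq at 13.9 to 24.9. That gap lay mostly in Lpl, at 3376 against 924, and Fabp4 (66.1 against 39.7) was also higher in wild type. Cebpa (200.1 against 272), Retn (207 against 233) and Pparg (49.4 against 60.9) were higher in PKBa-/-. Erythroid markers, 5 of 7 measured, summed to 412 to 712 over all arrays, with Hba-a1 at 29.4 to 54.2. The part of mesothelial cells in the genotype differences described here was not tested, and in such bulk RNA fewer cells of a type and less RNA per cell cannot be told apart.

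The 3 members that were tested, Tfrc, Slc11a2 and Fth1, were all lower in PKBa-/- than in wild type when the 5 times were averaged. Over all 7436 genes tested, 65.2% passed this comparison and 28.6% passed as lower. The 3 genes belong to a set chosen with earlier results of these data known. Their p-values, here and below, are therefore not independent of that choice. Each of the 3 also changed over time in wild type and in PKBa-/- by limma's F test, which 62.3% and 63% of all genes passed, so that a change over time was common on these arrays. On pair averages these F tests did not pass for any of the 3: the adjusted p in wild type and PKBa-/- was 0.082 and 0.157 for Tfrc, 0.273 and 0.058 for Slc11a2, and 0.055 and 0.425 for Fth1.

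Tfrc, the transferrin receptor, was lower in PKBa-/- by 0.55 ± 0.07 on the log2 scale (SE), that is 1.46-fold (adjusted p = 5.2e-08; 0.0015 on pair averages). At time 0 its signals were 651, 660, 564 and 558 in wild type and 346, 335, 316 and 329 in PKBa-/-, with no overlap. At time 2 they were 770 and 882 against 538 and 604, and at time 6 they were 730, 723, 632 and 603 against 525, 520, 364 and 382. The genotypes did not overlap at these times either. At time 24 the genotypes met in replicates 1 and 2, with 448 and 474 in wild type and 466 and 432 in PKBa-/-. In replicates 3 and 4 of that time they stayed apart, with 332 and 353 against 267 and 232. At time 48 wild type gave 473, 477, 592 and 482 and PKBa-/- 320, 336, 282 and 328, again apart.

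The Tfrc difference between genotypes was -0.81 ± 0.15 at time 0 (adjusted p = 3.7e-05; 0.032 on pair averages), -0.57 at time 6 (0.0022; 0.116) and -0.62 at time 48 (6.7e-04; 0.069). It was -0.51 at time 2 (0.074) and -0.23 at time 24 (0.22), where it did not pass. Over time, Tfrc rose in PKBa-/- at time 2 by 0.73 ± 0.18 (adjusted p = 0.0038) and at time 6 by 0.38 (0.035; 0.295 on pair averages). In replicates 1 and 2 alone, its mean signal there was 341 at time 0 and 571 at time 2. In limma, the rise at time 2 rests on 2 arrays and did not pass without PKBa-/- replicate 2 of that time, where it was 0.65 (adjusted p = 0.096); that at time 6 did not pass when any of 5 arrays was left out, with 0.31 and an adjusted p of 0.13 at the weakest. In wild type it was 0.42 higher at time 2 (adjusted p = 0.10) and fell by 0.57 at time 24 (0.0035; 0.187 on pair averages). The change over time did not pass as different between the genotypes (F test, adjusted p = 0.24). Ordered by mean, wild type at time 2 was highest, apart from the next, and the other 9 groups overlapped from each to the next.

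Of the other Tfrc probe sets, the second was dim, with medians of 175 in wild type and 156 in PKBa-/- and did not share the genotype difference at every time. Its ratios of PKBa-/- to wild type were 0.817, 0.897, 0.875, 0.870 and 1.02 at the 5 times, against 0.545, 0.692, 0.666, 0.868 and 0.625 for the bright one. The next read 29.2 to 61.8, with ratios of 0.853, 0.914, 0.926, 1.13 and 0.938, and the 3' control probe set 40.6 to 69.8. When the probe sets were averaged, the genotype difference shrank to -0.24 and still passed.

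Slc11a2, the endosomal iron transporter, was lower in PKBa-/- by 0.43 ± 0.06 on the log2 scale (1.34-fold; adjusted p = 4.4e-08; 0.0012 on pair averages). Its signals were 330, 313, 377 and 380 in wild type and 301, 269, 248 and 211 in PKBa-/- at time 0, and 330 and 313 against 252 and 270 at time 2. At time 6 both genotypes were at their highest, with 389, 403, 519 and 452 against 326, 347, 335 and 328. At time 24 PKBa-/- was at its lowest, with 202, 202, 183 and 170 against 297, 248, 386 and 343 in wild type. At time 48 the signals were 269, 276, 385 and 366 against 232, 222, 204 and 248. No PKBa-/- array overlapped a wild type array of the same time.

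The Slc11a2 difference between genotypes was -0.65 ± 0.11 at time 24 (adjusted p = 1.7e-05; 0.018 on pair averages), -0.40 at time 0 (0.0046; 0.144), -0.36 at time 6 (0.010; 0.187) and -0.45 at time 48 (0.0014; 0.082). It did not pass at time 2, where it was -0.27 (0.244). Relative to time 0 it rose at time 6 by 0.30 in wild type (0.034; 0.299) and by 0.35 in PKBa-/- (0.013; 0.198), and in PKBa-/- it fell by 0.38 at time 24 (0.011; 0.251). In limma, the wild type rise did not pass when any of 4 arrays was left out, with 0.23 and an adjusted p of 0.14 at the weakest. In limma, the changes in PKBa-/- did not pass without time 0 replicate 4 (0.27, adjusted p = 0.076, at time 6) and without time 0 replicate 1 (-0.31, adjusted p = 0.061, at time 24). The genotypes' courses did not pass as different (F test, adjusted p = 0.47). Ordered by mean, wild type at time 6 was highest and PKBa-/- at time 24 lowest, both apart from their neighbours, and the 8 groups between overlapped from each to the next. The second of the 3 probe sets was also lower in PKBa-/- at all 5 times, with ratios of 0.807, 0.820, 0.746, 0.727 and 0.703. The bright one had 0.736, 0.813, 0.758, 0.594 and 0.699. The remaining probe set did not share the genotype difference at every time, with 1.03, 1.01, 1.15, 0.805 and 0.928. The peak of the bright probe set at time 6 was not shared throughout. The second probe set was highest at time 2, with means of 209 in wild type and 172 in PKBa-/-. The remaining one was highest at time 24 in wild type (240) and at time 6 in PKBa-/- (267).

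**Figure D2:**
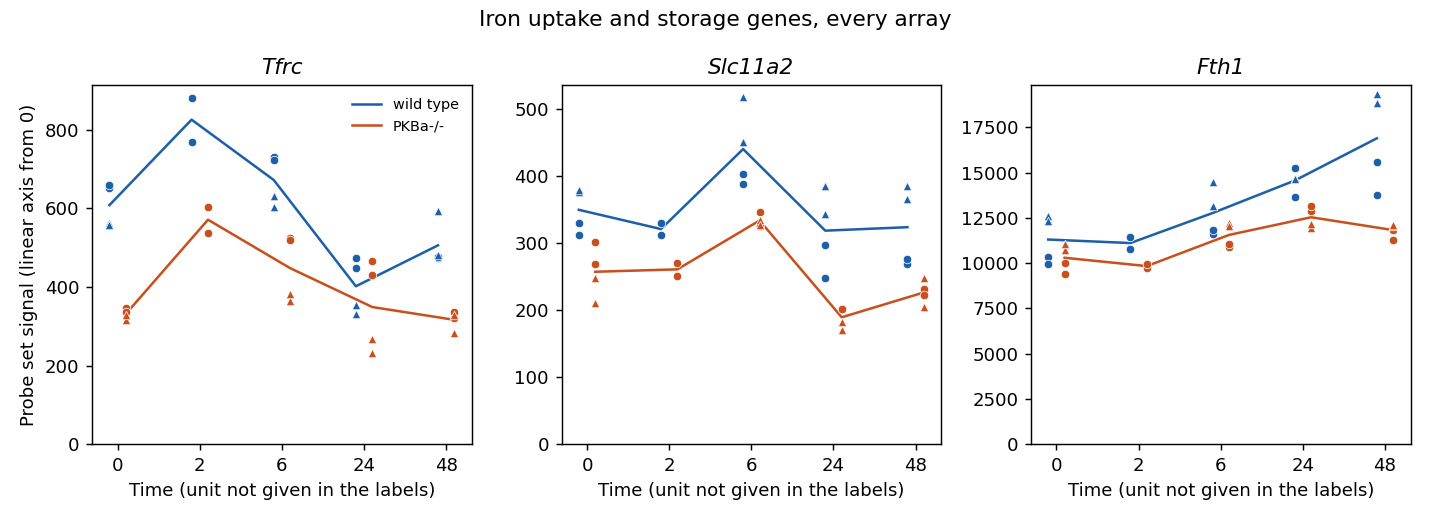
Signal of Tfrc, Slc11a2 and Fth1 (linear axis from 0) in every array against time, in wild type (blue) and PKBa-/- (orange); circles are replicates 1 and 2, triangles replicates 3 and 4, and lines join group means. The Slc11a2 arrays of the genotypes do not overlap at any time, and those of Tfrc meet at time 24 in replicates 1 and 2. Fth1 separates at time 48, with means of 16888 and 11821.

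Fth1, the heavy chain of ferritin, gave the highest single signal on the arrays, 19337, and rose with time in wild type. Its signals there were 10348, 9974, 12573 and 12310 at time 0, 11453 and 10759 at time 2 and 11630, 11819, 13147 and 14450 at time 6. They reached 13641, 15248, 14679 and 14649 at time 24 and 15583, 13786, 19337 and 18844 at time 48. In PKBa-/- they were 9381, 10013, 10703 and 11079 at time 0, 9713 and 9954 at time 2 and 10903, 11048, 12201 and 12062 at time 6. They were 12888, 13147, 11956 and 12132 at time 24 and 11290, 11846, 12035 and 12113 at time 48. The genotypes overlapped at times 0 and 6 and were apart at times 2, 24 and 48. The difference did not pass at times 0, 2, 6 and 24, with adjusted p = 0.249, 0.368, 0.236 and 0.054.

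The rise of Fth1 in wild type was 0.37 at time 24 (adjusted p = 0.0023; 0.184 on pair averages) and 0.57 ± 0.09 at time 48, or 1.49-fold (1.1e-05; 0.040). In PKBa-/- it was 0.28 at time 24 (0.018; 0.326) and 0.20 at time 48 (0.095), where it did not pass. In limma, the rise at time 24 in PKBa-/- did not pass without time 0 replicate 1 (0.24, adjusted p = 0.073) or time 24 replicate 2 (0.26, adjusted p = 0.054). PKBa-/- was lower by 0.23 ± 0.04 averaged over times (adjusted p = 3.0e-05; 0.018 on pair averages) and by 0.50 ± 0.09 at time 48 (2.8e-05; 0.028). The changes at time 48 differed between genotypes by -0.37 ± 0.13 (adjusted p = 0.048), which was lost on pair averages (0.578). The second Fth1 probe set had a ratio of 1.66 between times 48 and 0 in wild type and 1.41 in PKBa-/-, and of 0.737 between the genotypes at time 48. Its ratios of PKBa-/- to wild type at times 0, 2, 6 and 24 were 0.870, 1.03, 0.895 and 0.943. Ordered by mean, wild type at times 48 and 24 was highest and PKBa-/- at times 0 and 2 lowest, and each group overlapped the next.

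Beyond the members, a list of 70 genes of iron handling was drawn up by role, with earlier results of these data known. Of these, 56 had a probe set of their own and 46 passed the filter on low signal; 43 were tested once Slc40a1, Scara5 and Lcn2 were set aside. PKBa-/- differed from wild type, averaged over times, in 35 of the 43 (81.4%, against 65.2% of all genes), with 12 higher (36.6% of all genes) and 23 lower (28.6% of all genes). The median difference was -0.19 for the list and 0.03 for all genes tested. On pair averages 27 of the 43 passed. The share of all genes that passed on pair averages is not given, so counts on pair averages here and below are not set against all genes.

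At single times the lower calls also outnumbered the higher ones. At time 0, 9 genes were higher and 17 lower, where 41.3% of all genes passed, 20.9% as higher and 20.5% as lower. At time 2, 6 were higher and 8 lower (23.5% of all genes, 14.5% and 9.01%), and at time 6, 8 and 16 (39.5% of all genes, 21.8% and 17.7%). At time 24, 4 were higher and 17 lower (42.6% of all genes, 21.6% and 21.1%), and at time 48, 3 and 22 (46.9% of all genes, 26.6% and 20.3%). The list's median difference was -0.13 at time 0, 0.03 at time 2, -0.11 at time 6, -0.21 at time 24 and -0.23 at time 48, where that of all genes lay between 0.01 and 0.05. On pair averages the calls in either direction went from 26 to 12 at time 0 and from 24 to 8 at time 6. They went from 21 to 12 at time 24 and from 25 to 10 at time 48.

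In uptake and reduction, 4 genes were higher and 4 lower of 9. For this and the other roles, 36.6% of all genes were higher and 28.6% lower, and no role was tested against these shares. Steap3, the ferrireductase of endosomes, had signals of 99.6 to 239 in wild type and 359 to 1033 in PKBa-/-, with no overlap, and was higher by 1.70 ± 0.08 (adjusted p = 5.4e-18; 2.4e-07 on pair averages). Slc22a17, described as a receptor for lipocalin 2, was higher by 0.41 (5.3e-11; 3.4e-05) and Slc39a14, a transporter of iron and zinc, by 0.33 (2.7e-06; 0.0067). Slc39a14 was not higher at every time: at time 24 its mean was 440 in PKBa-/- and 447 in wild type. In replicates 3 and 4 alone these means were 392 and 468 at time 24, and 449 and 450 at time 48. In storage and chaperones, 1 of 4 was higher and 3 lower. Both tested genes of export and its control were lower, of which Neo1, a co-receptor that acts on hepcidin expression, was lost on pair averages (-0.36, adjusted p = 0.0010; 0.062). Cp, ceruloplasmin, which oxidises exported iron, had signals of 475 to 2821 in wild type and 151 to 314 in PKBa-/-, and differed by -1.92 ± 0.13 (8.3e-15; 7.7e-06). Within wild type, Cp was higher in replicates 3 and 4 than in 1 and 2 at times 0, 6, 24 and 48, for example 523, 531, 1307 and 1223 at time 0.

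Of the 12 genes of mitochondrial iron and iron-sulfur clusters, 3 were higher and 7 lower (83.3% in either direction, against 65.2% of all genes). Nfs1, the cysteine desulfurase that supplies the sulfur, was higher by 0.39 (6.7e-10; 3.6e-04). Iscu, the scaffold on which clusters are built, differed by -0.98 ± 0.05 (1.3e-16; 8.7e-07), and Fdx1, a ferredoxin, by -0.88 ± 0.08 (9.6e-11; 8.4e-05). Of 14 heme genes, 4 were higher and 7 lower (78.6% in either direction, against 65.2% of all genes), and the count of 11 went to 6 on pair averages. Alad, the enzyme of the second step of heme synthesis, had signals of 655 to 1675 in wild type and 128 to 316 in PKBa-/-, a difference of -2.09 ± 0.08 (3.8e-21; 2.6e-08). The transcripts of the iron sensors Aco1 and Ireb2 differed by -0.11 and -0.08 and did not pass (adjusted p = 0.24 for both). The mesothelial marker sum, given above, moved with genotype in the same direction as Cp, Alad and Iscu, and its part was not tested. At time 0 the arrays of the genotypes were apart for that sum, Cp and Alad. Those of Iscu overlapped at time 0, with means of 1249 in wild type and 1070 in PKBa-/-.

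**Figure D3:**
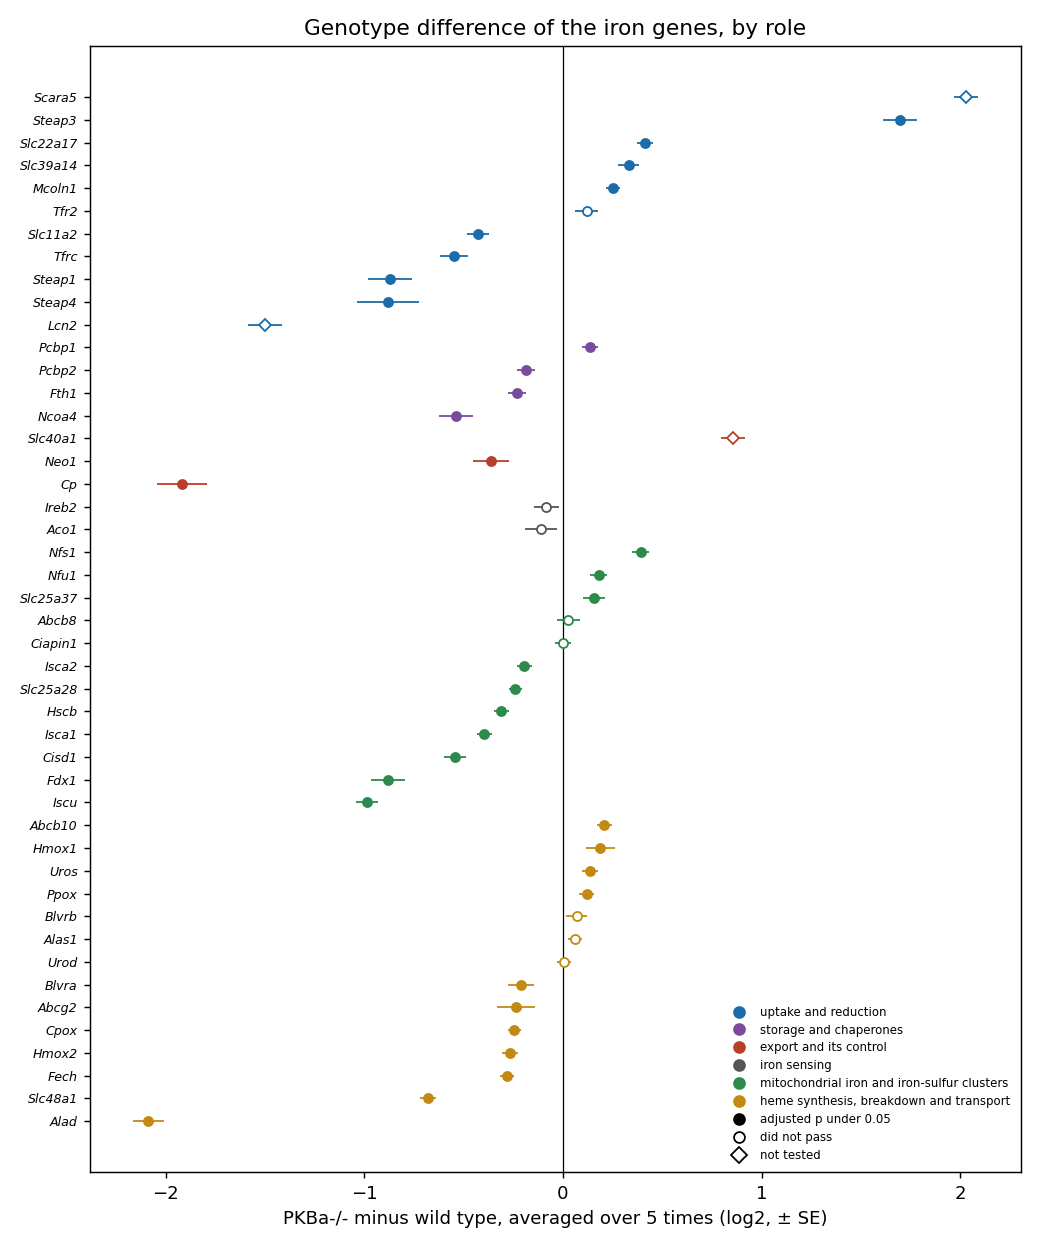
Log2 difference of PKBa-/- from wild type as the average of the 5 times (horizontal axis, ± SE) for the 46 iron genes that passed the filter, coloured by role; filled circles passed at an adjusted p of 0.05, open circles did not, and open diamonds were not tested. Alad (-2.09), Cp (-1.92) and Steap3 (1.70) lie farthest from 0 among the tested genes, and 23 filled points lie on the lower side against 12 on the higher side.

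Over time, 31 of the 43 genes changed in wild type by limma's F test (72.1%, against 62.3% of all genes; 10 on pair averages) and 26 in PKBa-/- (60.5%, against 63%; 12 on pair averages). At time 24, 10 rose and 6 fell in wild type (37.2%, against 27.1% of all genes, 12.1% up and 15% down), and 5 rose and 8 fell in PKBa-/- (30.2%, against 26.5%, 12.2% up and 14.2% down). Quantile normalization moved the wild type split to 15 up and 5 down, and without PKBa-/- time 0 replicate 1 the count in PKBa-/- was 8. On pair averages 3 and 2 genes passed. The list's median change was 0.08 in wild type and -0.02 in PKBa-/-, beside 0.01 and -0.01 over all genes.

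At time 6, 10 rose and 9 fell in wild type, where 36.3% of all genes passed, 15.6% up and 20.7% down. In PKBa-/- 11 rose and 10 fell at that time (40.4% of all genes, 19.8% up and 20.5% down). At time 48 the wild type calls were mostly rises, 10 against 1 (28.6% of all genes, 11.1% up and 17.6% down), and those in PKBa-/- were 4 and 5 (29.3% of all genes, 14.3% up and 15% down). At time 2, with 2 arrays per genotype, 3 rose and 1 fell in wild type (17.9% of all genes, 4.59% up and 13.3% down), and 4 rose and 1 fell in PKBa-/- (15.3% of all genes, 6.4% up and 8.93% down). On pair averages 8 calls were made in wild type at time 6 and 2 at time 48, and 11 and 3 in PKBa-/- at times 6 and 48. Such calls are not counted at time 2, where each group is then 1 value.

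Among the genes that rose at time 24 in wild type were Iscu by 1.34 ± 0.11 (adjusted p = 1.1e-10; 9.4e-04 on pair averages), Alad by 0.73 (9.6e-04; 0.108) and Ncoa4, the receptor that delivers ferritin for breakdown, by 0.67 (0.0050; 0.199). Those that fell included Hmox1, the enzyme that opens heme and frees its iron, with -0.61 (0.0019; 0.153), Slc48a1, a heme transporter, with -0.54 (8.7e-06; 0.035), and Steap1, with -0.61 (0.046; 0.395). The call for Steap1 was lost in 14 of the 36 fits that left out 1 array, with values from -0.67 to -0.44. In PKBa-/- Hmox1 fell by 1.30 ± 0.14 (2.5e-08; 0.0052), Slc48a1 by 0.80 ± 0.08 (9.6e-09; 0.0042) and Alas1, which begins heme synthesis, by 0.37 (1.1e-04; 0.050). Nfs1 rose there by 0.39 (6.9e-04; 0.118), Isca1, a cluster carrier, by 0.37 (4.1e-04; 0.093) and Pcbp2, an iron chaperone, by 0.32 (0.0077; 0.229).

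**Figure D4:**
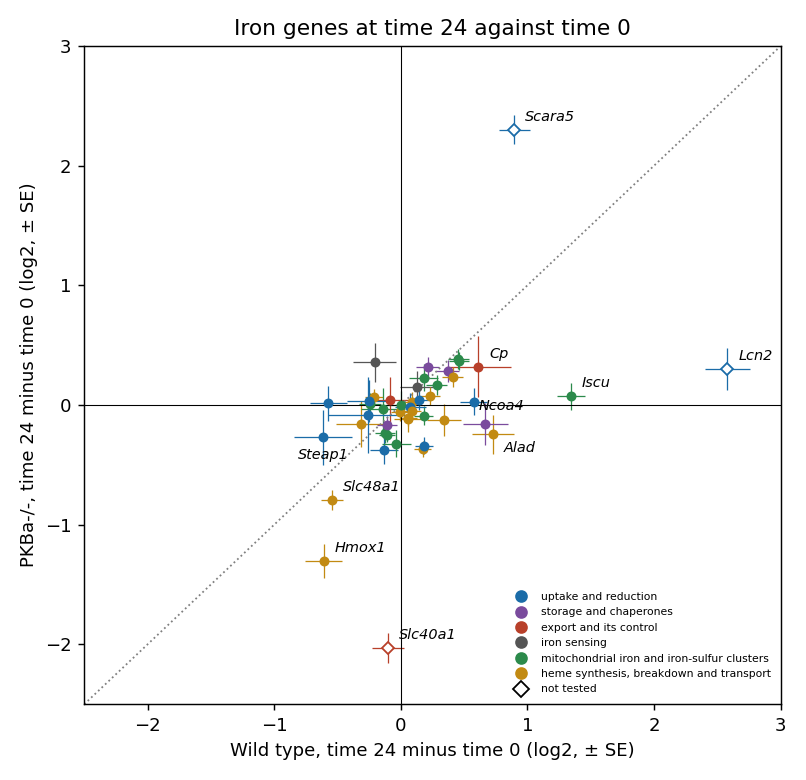
Change from time 0 to time 24 (log2, ± SE) of the 46 iron genes, with wild type on the horizontal and PKBa-/- on the vertical axis, coloured by role; the dotted line marks equal change and open diamonds were not tested. Lcn2 (2.58) and Iscu (1.34) lie far to the right, Scara5 (2.30 in PKBa-/-) at the top, and Slc40a1 (-2.03 in PKBa-/-) and Hmox1 (-1.30 in PKBa-/-) at the bottom.

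The course over time differed between genotypes in 13 of the 43 genes (30.2%, against 21.7% of all genes), and in 1 on pair averages. At single times, differences of the changes passed in 2.21% of all genes at time 2, 8.81% at time 6, 8.24% at time 24 and 14.3% at time 48. Iscu, the cluster scaffold, was among the list genes with a different course. Its wild type signals were 1023, 1096, 1486 and 1389 at time 0, 1413 and 1574 at time 2 and 2570, 2733, 3139 and 3245 at time 6. They were 2726, 2877, 3492 and 3744 at time 24 and 3307, 2920, 3809 and 3784 at time 48, while in PKBa-/- all 18 arrays lay between 884 and 1344. The change differed between genotypes by -0.93 at time 6 (adjusted p = 1.1e-04; 0.110 on pair averages), -1.27 ± 0.16 at time 24 (1.1e-06; 0.033) and -1.44 at time 48 (6.6e-08; 0.0099).

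Iscu was also the gene whose 10 group means followed those of Lcn2 most closely (Pearson r = 0.985), before Tmem158 (0.982) and Actn3 (0.972). The genes most like Slc40a1 were Phyh (0.940), Tmem106a (0.923) and Washc4 (0.911); Phyh had means of 255 at time 0 and 109 at time 6 in PKBa-/-. Those most like Scara5 were Ifitm1 (0.967), with 190 at time 0 and 1079 at time 48 in PKBa-/-, Lrp5 (0.965) and Rpl37a (0.960). Those most like Tfrc were Lamc1 (0.940), Dusp14 (0.936) and Mtmr10 (0.936). These correlations describe 10 group means that come from the same arrays, and the best of 7436 genes is always high.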

How the data were processed

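Mouse embryonic fibroblast RNA was measured on 36 Affymetrix arrays, from biotinylated cRNA per the labels' protocols. The deposited values are probe set intensities on a linear scale, from 8.62 to 19337; the authors' summary and normalization steps are not stated in the labels. The number of arrays limits the precision.

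Genes were read from the platform annotation: 1 gene was named for 20380 probe sets, more for 691 and no gene for 1555, beside 64 controls. Each gene was taken on its brightest probe set with 1 gene, as log2(intensity + 32), without further normalization. The 40% of genes with the lowest mean were left out, which left 7436. Limma 3.58.1 in R 4.3.3 fitted the 10 group means with 26 residual degrees of freedom; p-values are two-sided and adjusted by Benjamini and Hochberg over all genes tested, with a threshold of 0.05. In simulated data with independent arrays, the test of the genotype average recovered large known changes. That simulation held no likeness within replicate pairs, so it cannot show how the test behaves on arrays that have it. Other comparisons were not simulated.

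The members and the iron list were chosen with earlier results of these data known. Named genes beyond the members were the 4 highest and 4 lowest genotype differences, the 3 highest and 3 lowest changes at time 24 per genotype, each among list genes that passed, and the 3 genes most correlated with Slc40a1, Scara5, Lcn2 and Tfrc; others are named as examples. Residual correlations of arrays with the same replicate number ran from -0.212 to 0.719 within a genotype and from -0.217 to 0.441 between genotypes, so the numbers were not taken to pair arrays. Alternatives were other offsets, filters, probe set rules and normalizations, a replicate block, pair averages, a random pair effect, replicate sets alone and leaving out each array.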

Additional observations from a re-analysis of the deposited data

Results flagged for a closer look

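Of 168 groups of 4 arrays over 21 named genes, 6 held an array far from the others of its group. For independent arrays chance alone flags about 1 group in 20. Arrays of a replicate pair were alike here, so the count cannot be read against that rate. The 6 were wild type arrays of Tfrc at time 48 (592), Nfs1 at time 0 (351), Slc39a14 at time 24 (506) and Isca1 at time 6 (1235), and PKBa-/- arrays of Iscu at time 24 (1025) and Slc48a1 at time 6 (627).

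Of 72 differences between genotypes in the change from time 0, 17 passed limma's test, while 2.21%, 8.81%, 8.24% and 14.3% of all genes passed at times 2, 6, 24 and 48. Most of the genes examined were named because their differences or changes passed and were large, so the count is not independent of that choice. Beyond Iscu (-0.93 at time 6, -1.27 at time 24, -1.44 at time 48) they were as follows, with the adjusted p and that on pair averages. At time 2 only the adjusted p is given. Fth1 differed by -0.37 at time 48 (0.048; 0.578), Slc39a14 by -0.55 at time 24 (0.023; 0.629) and Alad by -0.97 at time 24 (0.0054; 0.413). Fdx1 differed by -1.13 at time 2 (0.034) and -0.90 at time 6 (0.014; 0.443). Ncoa4 differed by -0.90 at time 6 (0.018; 0.535) and -0.83 at time 24 (0.035; 0.653). Hmox1 differed by -0.69 at time 24 (0.029; 0.644) and -0.60 at time 48 (0.044; 0.538). Slc48a1 differed by 0.40 at time 6 (0.028; 0.632) and Isca1 by 0.58 at time 2 (0.0088). Alas1 differed by -0.48 at time 2 (0.020), -0.54 at time 24 (2.6e-04; 0.172) and -0.62 at time 48 (2.8e-05; 0.065). Of the differences at times 6, 24 and 48, those of Iscu at times 24 and 48 also passed on pair averages.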

How the results depend on the processing

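Treating the 2 arrays of a replicate pair as 1 changed the counts over the 43 iron genes most. On pair averages 10 genes changed over time in wild type, 12 in PKBa-/- and 1 differently between genotypes, and 3 and 2 passed at time 24; a random pair effect gave 20 in wild type, 4 between genotypes, and 10 and 4 at time 24. These settings have fewer independent arrays. Replicates 1 and 2 alone gave 23 genes with a different course, where the cause was not tested. Leaving out each array gave 34 to 36 genes for the genotype difference, 30 to 32 and 24 to 28 for change over time in wild type and PKBa-/-, 12 to 15 between genotypes, and 13 to 18 and 8 to 13 at time 24. With the replicate number as a block the 6 counts were 36, 33, 32, 17, 19 and 13, against 35, 31, 26, 13, 16 and 13.

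For single genes, 86 results were recomputed under 1004 alternatives. Of these, 38 lost a call, 17 gained one and 0 reversed a call, and 44 values of members without a test moved by more than the spread between arrays. The other 905 were counted as the same. A result that had not passed was also counted as the same when its direction changed. Tfrc at time 24 in PKBa-/-, for example, ran from -0.34 to 0.37. Of 38 results that passed, 19 passed under every one of 11 or 12 alternatives other than leaving out an array. Pair averages gave the highest adjusted p in 36 of the 38; the exceptions were Alas1 at time 24 in PKBa-/- (0.053 with a random pair effect) and Slc39a14 between genotypes (0.048 with replicates 3 and 4 alone). Averaging all probe sets took Scara5 at time 24 in PKBa-/- from 2.30 to 1.12. Low signals limit Lcn2 in PKBa-/- and Scara5 in wild type, with signals below the 123 needed for a test in all 18 and in some arrays, where the offset of 32 shrinks fold changes.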

Other observations

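Other iron genes had courses the account above does not show. Hmox1, the heme-degrading enzyme, fell in both genotypes at time 6: from 605, 609, 837 and 775 to 254, 306, 435 and 377 in wild type (-0.99 ± 0.14, adjusted p = 2.5e-06 by limma; 0.016 on pair averages), and from 936, 966, 1046 and 983 to 383, 376, 412 and 425 in PKBa-/- (-1.24 ± 0.14, 3.3e-08; 0.0033). At time 48 wild type was back at 535, 539, 996 and 836, and PKBa-/- gave 605, 670, 660 and 614, still -0.60 from time 0 (0.0018; 0.140).

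Fdx1, a mitochondrial ferredoxin, rose at time 2 in wild type, from 917, 951, 849 and 733 to 1861 and 1892 (1.10 ± 0.21, adjusted p = 2.8e-04 by limma). In PKBa-/- it stood at 557 and 566 at time 2, within its time 0 range of 479 to 735. It fell there to 352, 390, 302 and 322 at time 6 (-0.70, adjusted p = 0.0013; 0.070 on pair averages). These courses were picked for description after their values were seen.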
